A study of Homo sapiens with 17 samples.

Results

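The 38 genes described here encode the folding machinery of the endoplasmic reticulum (ER) and the unfolded protein response that adjusts it. They were taken from a list of symbols, and all 38 had exactly 1 Ensembl identifier among the 63677 genes counted in each library. They were matched by symbol, with no cutoff on a measured value, and the list was drawn up knowing that chaperones are high in 1 WSU-DLCL2 library (replicate 3 of the untreated group). By role they are 9 luminal chaperones and cofactors, 8 disulfide and prolyl isomerases, 2 lectin chaperones and 8 factors of ER-associated degradation. The other members are 4 stress sensors and related factors, 6 components of translocation and signal peptide cleavage, and 1 subunit of the COPII vesicle coat.

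RNA was sequenced from Karpas-422 and WSU-DLCL2, which are established lines of human diffuse large B cell lymphoma. There were 15 libraries in 5 groups of 3: each line untreated, each line after 48 h with A-485, and 3 WSU-DLCL2 clones that the labels call BCL11A knockouts, with no A-485. Untreated here means a title that names no A-485. The comparisons were defined with DMSO (vehicle) as the control of both lines, so untreated does not mean without vehicle. A-485 blocks the catalytic domain of p300 and CBP, a pair of acetyltransferases of histones and other proteins, so the comparison in Karpas-422 asks which transcripts change when that acetylation is inhibited. BCL11A is a zinc-finger repressor expressed in B cells. Each clone is a separate derivative of 1 line, and the edit itself is not described in the labels. The labels do not say that replicates came from separate cultures, so p-values measure the spread between libraries that may be technical repeats. For untreated WSU-DLCL2 replicate 3, the title names no A-485 and the treatment entry says A-485. It was kept with the untreated group by its title, and the clones are compared with the untreated group with and without it.

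The ER lumen is where secreted and membrane proteins fold. HSPA5 (BiP), an HSP70 chaperone, binds unfolded chains with the help of J proteins, while HSP90B1 (GRP94) acts on a smaller set of clients and the lectins calnexin and calreticulin hold glycoproteins for the isomerase PDIA3. Chains that fail to fold are recognised by lectins such as EDEM1 and passed to the ubiquitin ligase SYVN1 with SEL1L for degradation. Unfolded protein is sensed by ATF6, by ERN1 (IRE1), which splices XBP1 mRNA, and by EIF2AK3 (PERK), which slows translation and raises ATF4. Cleaved ATF6 and spliced XBP1 raise the transcription of chaperones through short promoter elements, and plasma cells, the secretory end of the B lineage, need this programme to make antibody.

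Those elements are shown for 6 members on which the results below turn. Each sequence is the 250 bases before the gene's start in the RefSeq annotation of GRCh38.p14, read 5′ to 3′ on the gene's own strand. The ER stress response element (ERSE) is CCAAT, then 9 bases of any kind, then CCACG, and ERSE-II is ATTGG, 1 base of any kind, then CCACG. Capitals mark every match on either strand. HSPA5 is at chr9:125241344-125241593 (minus strand), HSP90B1 at chr12:103930160-103930409 (plus), CALR at chr19:12938359-12938608 (plus), HERPUD1 at chr16:56931892-56932141 (plus), SDF2L1 at chr22:21642052-21642301 (plus) and PDIA4 at chr7:149028491-149028740 (minus).
HSPA5: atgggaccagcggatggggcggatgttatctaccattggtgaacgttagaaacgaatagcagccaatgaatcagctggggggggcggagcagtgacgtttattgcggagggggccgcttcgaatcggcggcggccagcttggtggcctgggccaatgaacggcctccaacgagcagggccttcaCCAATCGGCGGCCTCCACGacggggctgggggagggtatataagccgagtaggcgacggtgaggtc
HSP90B1: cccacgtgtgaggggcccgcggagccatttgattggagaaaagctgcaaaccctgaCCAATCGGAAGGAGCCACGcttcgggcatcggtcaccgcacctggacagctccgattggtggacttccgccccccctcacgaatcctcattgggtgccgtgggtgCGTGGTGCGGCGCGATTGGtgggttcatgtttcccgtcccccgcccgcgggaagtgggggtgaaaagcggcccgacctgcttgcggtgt
CALR: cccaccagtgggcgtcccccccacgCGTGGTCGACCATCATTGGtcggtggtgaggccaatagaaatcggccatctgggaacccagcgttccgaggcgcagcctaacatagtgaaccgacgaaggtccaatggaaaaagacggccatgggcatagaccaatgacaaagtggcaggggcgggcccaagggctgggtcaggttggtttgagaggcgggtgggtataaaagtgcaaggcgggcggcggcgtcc
HERPUD1: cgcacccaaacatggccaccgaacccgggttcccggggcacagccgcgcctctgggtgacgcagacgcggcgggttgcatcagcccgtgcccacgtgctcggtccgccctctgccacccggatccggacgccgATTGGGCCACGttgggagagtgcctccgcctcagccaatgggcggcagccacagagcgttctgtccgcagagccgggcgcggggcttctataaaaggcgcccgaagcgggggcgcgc
SDF2L1: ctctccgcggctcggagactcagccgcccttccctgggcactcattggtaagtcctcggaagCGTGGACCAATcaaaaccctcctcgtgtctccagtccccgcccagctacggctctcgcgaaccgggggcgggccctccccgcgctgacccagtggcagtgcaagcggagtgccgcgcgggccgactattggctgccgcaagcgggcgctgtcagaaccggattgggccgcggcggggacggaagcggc
PDIA4: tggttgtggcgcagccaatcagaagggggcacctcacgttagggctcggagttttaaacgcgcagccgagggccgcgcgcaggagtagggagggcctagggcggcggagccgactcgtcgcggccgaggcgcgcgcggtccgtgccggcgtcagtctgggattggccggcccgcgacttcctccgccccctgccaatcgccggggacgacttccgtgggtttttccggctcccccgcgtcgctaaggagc
The HSPA5 promoter held 1 exact ERSE match, at -66 to -48 from the start, and HSP90B1 held 2, at -194 to -176 and, on the opposite strand, at -89 to -71. CALR held 1 on the opposite strand at -225 to -207. The ERSE-II matches lay at -117 to -107 in HERPUD1 and, on the opposite strand, at -188 to -178 in SDF2L1. PDIA4 is shown because its counts moved with those of HSPA5 in Karpas-422 although neither element is in its window, which says only that these letters are not there. Promoters of 300 bases (250 before to 50 after the start) were matched for 34 of the 38 members. ERSE was in 5 of them (HSPA5, HSP90B1, CRELD2, CALR and CANX), which is 14.7%, against 0.0806% of all 27305 promoters. ERSE-II was in 3 (HYOU1, SDF2L1 and HERPUD1), 8.82% against 0.0549%. The unfolded protein response element, searched as TGACGTGG on both strands, was in HYOU1 and TXNDC11, 5.88% against 0.795%. A match is a description of sequence and not of binding. Only exact matches were counted, so a promoter without an element here may still hold a near match.

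The libraries were of 2 kinds. The 9 libraries of Karpas-422 and of WSU-DLCL2 with A-485 held 6689320 to 8897051 counts in genes, and 43.0% to 55.5% of their reads had no unique alignment. The 6 libraries of untreated WSU-DLCL2 and the clones held 21233752 to 37286727 counts with 7.73% to 9.24% not unique. ACTB, an abundant mRNA in most cells, had 3.20 to 31.9 CPM (counts per 1000000 counts in genes) in the first kind and 3432 to 9994 CPM in the other. A value in the first kind is therefore not a level of expression that can be set beside another gene. The number of annotated transcripts (GENCODE 29) is given beside some of the members in Karpas-422. No comparison was made across the kinds, so WSU-DLCL2 with A-485 was compared with Karpas-422 with A-485 alone. Of 10 B cell markers, none was at 0 in every Karpas-422 library, while the B cell marker MS4A1 reached only 4.32 to 42.9 CPM in the first kind. All CPM for a comparison below are scaled by the trimmed mean of M values (TMM) within that comparison. A bulk library cannot tell fewer cells of a type from less RNA per cell.

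In Karpas-422, A-485 was followed by a large fall of HSPA5 and by changes in both directions among the other members. Of 34 members with enough counts to test, 10 rose and 13 fell (edgeR quasi-likelihood test, Benjamini-Hochberg adjusted p under 0.05). Of all 11846 genes tested, 37.6% rose and 33.7% fell, so neither direction of call stood out from the genes at large. The groups did not overlap, with A-485 above untreated, for 10 members (39.8% of all genes) and, with A-485 below, for 14 (34.9%). The members' median log2 fold change was -0.17 against 0.08 over all genes. The 38 members took 1.04% to 1.07% of gene counts in the untreated libraries and 0.766% to 0.772% with A-485. HSPA5 alone made up 50.2% to 51.3% of the members' counts before and 28.3% to 28.7% after. These are shares of counts in this kind of library, and not of the members' RNA, since genes cannot be compared here. Without HSPA5 the members' share was 0.516% to 0.520% untreated and 0.546% to 0.553% with A-485.

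Scaling bears on every direction here: with library totals in place of TMM, the median of all genes moves up by 0.40 on the log2 scale. The calls that are rises then go from 52.7% to 73.8%, and the members give 16 rises and 8 falls. Of the reads, 54.5% to 55.5% untreated and 48.8% to 49.0% with A-485 had no unique alignment, and those outside genes were 3.61% to 4.54% and 8.25% to 8.91%. Their part in these results was not tested. Genes with many annotated transcripts had higher fold changes in these libraries: Spearman's rho was 0.31 over 34 members and 0.18 over 11498 genes, a description across genes of the same libraries. Members with 1 to 3 transcripts had a median log2 fold change of -0.52 (8 members, all genes -0.09), those with 4 to 8 had -0.13 (14 members, all genes -0.11) and those with 9 or more 0.15 (12 members, all genes 0.37).

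Among the luminal chaperones 3 rose, 3 fell and 2 of the 8 tested did not pass. HSPA5, which has 1 annotated transcript, stood at 5727, 6474 and 6154 CPM in the untreated libraries and at 1914, 1905 and 1910.2 CPM with A-485. Every A-485 library was far below every untreated one, and the 3 lay within 10 CPM of each other. The means were 6118 ± 375 and 1909.8 ± 4.63 CPM (SD, n = 3), a 3.20-fold fall with a log2 fold change of -1.68 ± 0.06 (SE, edgeR adjusted p = 9.82e-12). HSP90B1, the HSP90 of the lumen, moved the other way, from 30.2, 15.0 and 17.4 to 52.4, 58.9 and 54.9 CPM (11 transcripts). Its groups did not overlap, and its log2 fold change was 1.39 ± 0.21 (edgeR adjusted p = 0.000447). HSPA5 and HSP90B1, which both hold an ERSE in the sequences above, thus changed in opposite directions in these counts.

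DNAJB11 (ERdj3), a J protein that hands unfolded chains to HSPA5, rose from 32.1, 22.1 and 16.4 to 105, 102 and 109 CPM (4 transcripts). That is 4.42-fold, with a log2 fold change of 2.14 ± 0.18 (edgeR adjusted p = 7.05e-06). Its luminal partner SDF2L1 fell from 82.0, 65.6 and 85.1 to 27.3, 24.3 and 26.8 CPM (2 transcripts), by 1.57 ± 0.10 on the log2 scale (edgeR adjusted p = 1.11e-08). The proteins of these genes form a complex in the ER, yet their counts parted. DNAJB9 (ERdj4), a J protein of ER-associated degradation, fell from 107, 113 and 99.6 to 68.6, 71.4 and 67.9 CPM, a log2 fold change of -0.62 ± 0.07 (edgeR adjusted p = 1.56e-06). DNAJC3 (p58IPK) rose by less, 0.20 ± 0.05 (edgeR adjusted p = 0.00196). The secreted stress proteins MANF (-0.36 ± 0.27, edgeR adjusted p = 0.252) and CRELD2 (0.28 ± 0.18, adjusted p = 0.183) did not pass. HYOU1, the nucleotide exchange factor of HSPA5, had 0.757 to 0.844 CPM untreated and 0.882 to 1.66 CPM with A-485, too few counts to test.

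**Figure D1:**
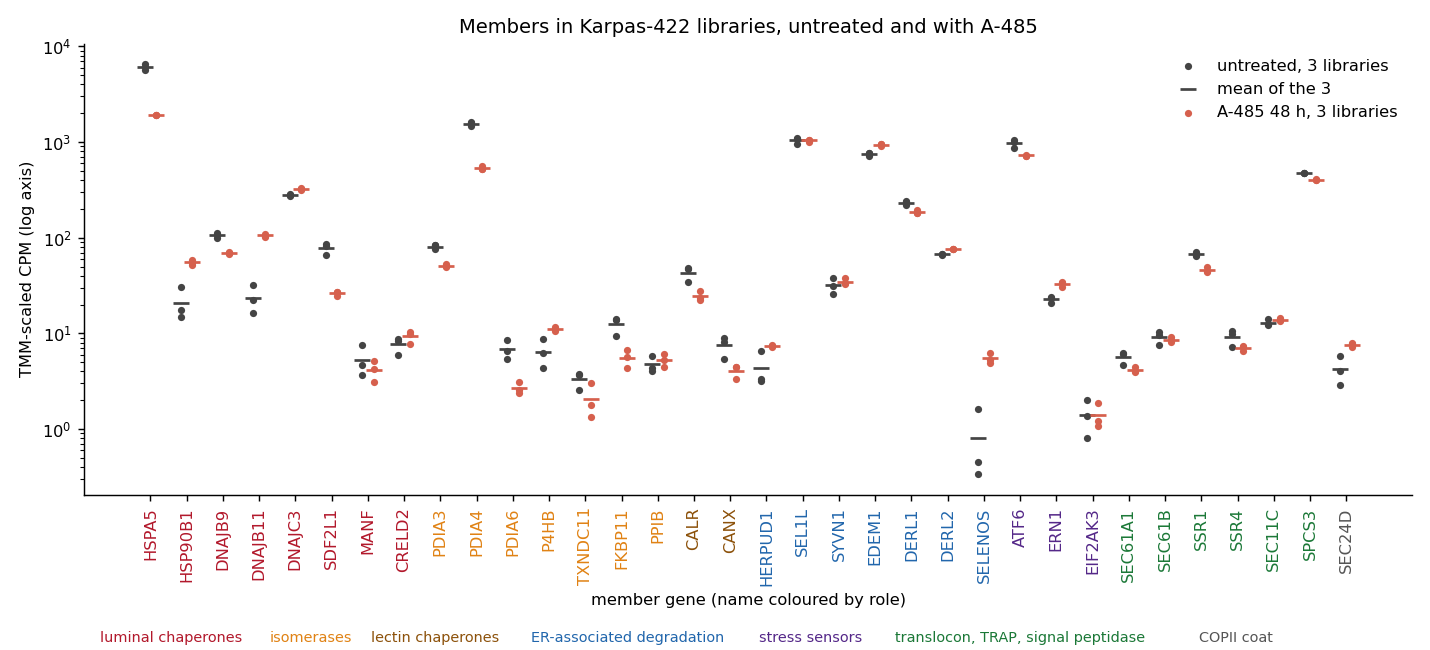
TMM-scaled CPM (log axis) of members in each Karpas-422 library, untreated and with A-485, 1 point per library. HSPA5 lies at 5727 to 6474 untreated and at 1905 to 1914 with A-485, while DNAJB11 goes from 16.4 to 32.1 up to 102 to 109.

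Of the 7 isomerases tested, 4 fell, 1 rose and 2 did not pass, beside falls in 33.7% and rises in 37.6% of all genes. PDIA4 (ERp72), a disulfide isomerase of the HSPA5 complex, fell from 1463, 1595 and 1616 to 561, 523 and 522 CPM (3 transcripts). This 2.91-fold fall, -1.54 ± 0.06 on the log2 scale, had an edgeR adjusted p of 2.26e-11. PDIA3 (ERp57), the isomerase that calnexin and calreticulin recruit, fell from 83.1, 83.0 and 76.4 to 50.5, 49.2 and 53.3 CPM, a log2 fold change of -0.67 ± 0.07 (edgeR adjusted p = 1.68e-06). Neither gene's groups overlapped. PDIA6 (-1.37 ± 0.23, edgeR adjusted p = 9.35e-05) and the prolyl isomerase FKBP11 (-1.17 ± 0.20, adjusted p = 0.000109) also fell, at no more than 13.98 CPM. P4HB, the classical protein disulfide isomerase, rose from 4.39 to 8.74 CPM untreated up to 10.5 to 11.7 CPM (log2 fold change 0.76 ± 0.20, edgeR adjusted p = 0.00348). TXNDC11 (-0.70 ± 0.31, edgeR adjusted p = 0.0556) and the cyclophilin PPIB (0.13 ± 0.21, adjusted p = 0.601) did not pass, and TXNDC5, at 0.303 to 1.33 CPM over both groups, was not tested.

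Both lectin chaperones fell. Calreticulin, CALR, went from 46.6, 34.4 and 48.1 to 27.6, 23.2 and 22.6 CPM (7 transcripts), a log2 fold change of -0.82 ± 0.13 (edgeR adjusted p = 8.58e-05). Calnexin, CANX, the membrane-bound relative with 19 transcripts, went from 5.40 to 9.01 CPM untreated down to 3.34 to 4.44 CPM (-0.91 ± 0.22, edgeR adjusted p = 0.0019). CALR stayed called with library totals alone (-0.41), whereas CANX did not (-0.51, edgeR adjusted p = 0.0604).

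Of the degradation factors 4 rose, 1 fell and 2 of 7 did not pass. EDEM1, the lectin that marks misfolded glycoproteins, rose from 710.02, 773 and 759 to 947, 948 and 916 CPM (log2 fold change 0.33 ± 0.05, edgeR adjusted p = 4.96e-05), with no overlap. SELENOS, a selenoprotein of the retrotranslocation complex, rose 6.37-fold, but from 12, 3 and 2 counts to 47, 64 and 49 counts, or 0.338 to 1.61 CPM up to 4.96 to 6.27 CPM (2.67 ± 0.36, edgeR adjusted p = 1.55e-05). SELENOS passed the count filter through the A-485 libraries, so its being tested is tied to its rise. HERPUD1, a membrane protein that joins the ligase complex and a standard stress target, rose from 6.59, 3.33 and 3.21 to 7.55, 7.45 and 7.18 CPM (19 transcripts), a log2 fold change of 0.72 ± 0.24 (edgeR adjusted p = 0.0141). That call was lost without untreated replicate 2 (0.54, adjusted p = 0.0803) or 3 (0.54, adjusted p = 0.0618), and without untreated replicate 1 the value was 1.17. The channel subunit DERL2 rose by 0.19 ± 0.06 (edgeR adjusted p = 0.0188), a call lost without untreated replicate 2 (adjusted p = 0.0595) or A-485 replicate 2 (0.0568) or 3 (0.0543), while DERL1 fell (-0.32 ± 0.06, adjusted p = 0.000151), except under library totals, where it was 0.084. SEL1L, the scaffold of the ligase, stood at 954 to 1112 CPM untreated and 1004 to 1063 CPM with A-485, a log2 fold change of -0.01 ± 0.06 that became 0.40 under library totals. SYVN1 (0.12 ± 0.13, edgeR adjusted p = 0.406) did not pass either, and DERL3, with 8 or 9 counts per untreated library and 1 to 4 with A-485, was not tested.

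The 3 sensors did not move together. ATF6 stood at 875, 1041 and 999.7 CPM untreated and 721, 739.9 and 712 CPM with A-485 (2 transcripts), a log2 fold change of -0.42 ± 0.06 (edgeR adjusted p = 2.81e-05) that was -0.02 under library totals (adjusted p = 0.761). ERN1 rose from 23.8, 23.2 and 20.9 to 34.3, 30.4 and 33.5 CPM (8 transcripts), with a log2 fold change of 0.53 ± 0.10 (edgeR adjusted p = 0.000401). EIF2AK3 gave 0.807, 1.36 and 2.03 against 1.89, 1.08 and 1.21 CPM, overlapping groups with a log2 fold change of 0.02 ± 0.39 (adjusted p = 0.961). CREB3L2, a membrane-bound factor of the same family as ATF6 that acts on secretory genes, had 0 counts in all 6 libraries, which allows up to 0.131 CPM over the untreated group and 0.119 CPM over the A-485 group (3 counts over each group, counting error only).

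In translocation, SSR1 of the TRAP complex (-0.55 ± 0.08, edgeR adjusted p = 3.4e-05) and SPCS3 of the signal peptidase (-0.24 ± 0.05, adjusted p = 0.000375) fell, but under library totals SSR1 was -0.14 (adjusted p = 0.143) and SPCS3 turned to 0.17. The translocon subunits SEC61A1 (-0.44 ± 0.19, edgeR adjusted p = 0.0536) and SEC61B (-0.10 ± 0.16, adjusted p = 0.598), SSR4 (-0.38 ± 0.17, adjusted p = 0.0654) and SEC11C (0.11 ± 0.13, adjusted p = 0.471) did not pass. SEC24D, a cargo-binding subunit of COPII, rose (0.83 ± 0.22, edgeR adjusted p = 0.00363) at 2.88 to 7.99 CPM. Of the 23 members called, 15 kept their call and direction in all 11 other settings tried; ATF6, CANX, DERL1, DERL2, DNAJC3, HERPUD1, SPCS3 and SSR1 did not.

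**Figure D2:**
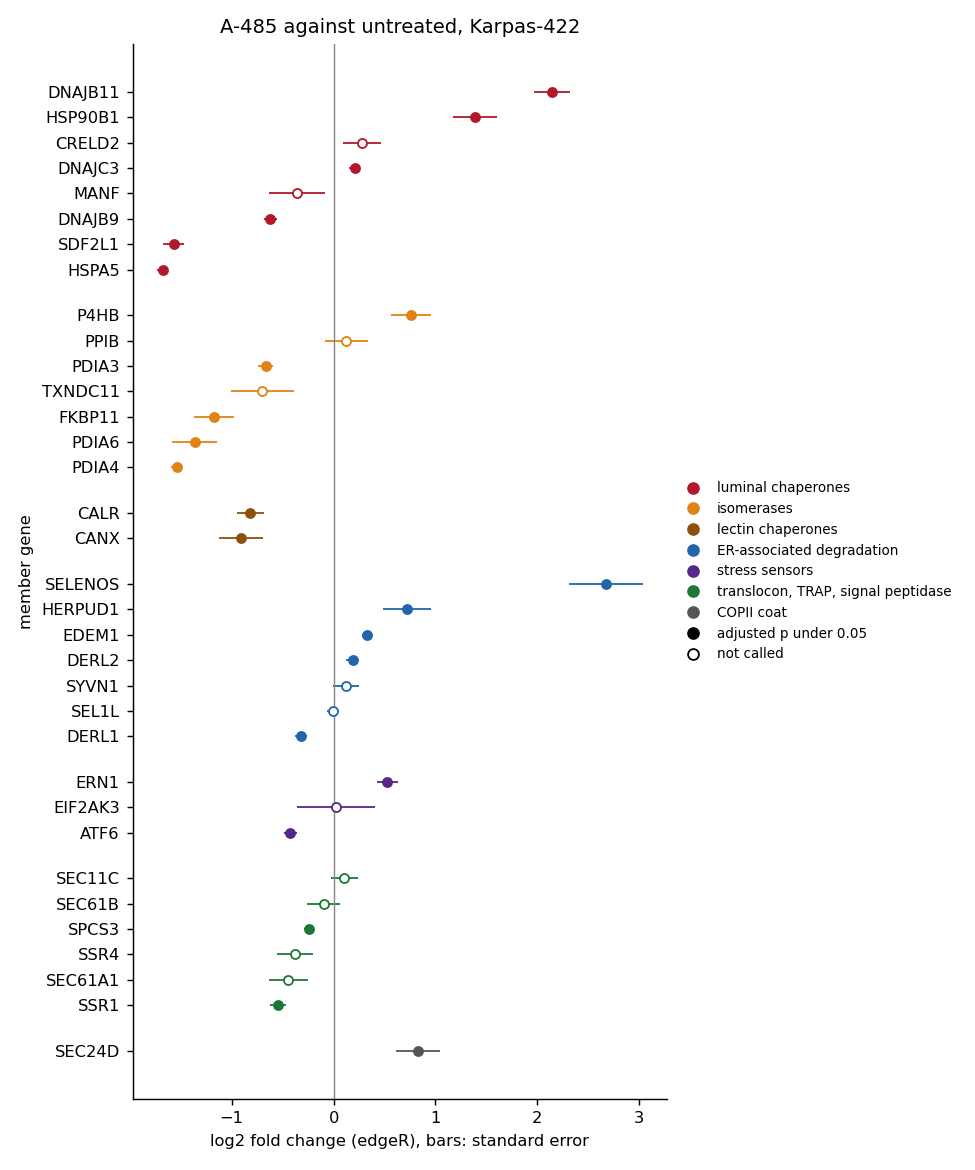
Log2 fold change with SE of the 34 tested members in Karpas-422, A-485 over untreated, coloured by role, with filled points for those called by edgeR. HSPA5 (-1.68) and SDF2L1 (-1.57) lie at the low end and SELENOS (2.67) and DNAJB11 (2.14) at the high end of the same list. SELENOS passed the count filter through the A-485 libraries, where it is high.

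The other genes of these pathways were read from 9 further lists of 137 genes in all. Their calls stand beside rises in 37.6% and falls in 33.7% of all 11846 genes tested, and several lists lie near those shares. Of 11 tested targets of the ATF4 arm, 1 rose and 7 fell, with a median log2 fold change of -0.77. TRIB3, a pseudokinase induced by ATF4, fell from 524, 553 and 544 to 126, 132 and 125 CPM (-2.08 ± 0.05, edgeR adjusted p = 5.73e-13), and the serine synthesis enzyme PSAT1 (-1.82) and the factor ATF5 (-1.09) fell as well. ATF4 itself rose at low counts, from 2.36 to 6.72 CPM up to 9.02 to 9.99 CPM (0.98 ± 0.24, edgeR adjusted p = 0.00272), and XBP1 did not pass (0.24 ± 0.23, adjusted p = 0.352). Both are named outside the rule for named genes, after their values were seen. Among 14 tested transcription factors and proteases of the response 1 rose and 4 fell (median 0.09), with RTCB, the ligase of XBP1 splicing, at -0.84, CEBPB at -1.37 and the eIF2 phosphatase subunit PPP1R15A at -0.73.

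Other degradation genes gave 11 rises and 5 falls of 19 (median 0.28), with FAM8A1 at 0.71, the segregase VCP at -0.69 and RNF5 at -0.65. Other folding enzymes gave 7 rises and 8 falls of 20 (median 0.07), among them PRDX4, a peroxiredoxin of the lumen, at -1.64, DNAJB14 at 0.72 and TXNDC12 at -0.42. Glycan trimming gave 3 and 4 of 10 (median 0.07), with UGGT2, which reglucosylates misfolded glycoproteins, at 0.82, LMAN1 at -0.60 and PRKCSH at -0.55. Further translocation genes gave 5 and 9 of 19 (median -0.06), with SRPRB at -1.51, SSR3 at -1.09 and SRPRA at -0.88. The oligosaccharyltransferase gave 3 and 5 of 11 (median -0.24), with OSTC, RPN1 and DAD1 at -0.75, -0.84 and -0.74, and the COPII coat 1 and 6 of 11 (median -0.25), with SEC23IP at -0.73, SEC13 at -0.42 and SEC24B at -0.31. SEC24B was 0.094 under library totals, and TXNDC12, PRKCSH, SEC13 and POU2AF1 lost their calls there. All 4 tested genes of the plasma cell list fell (median -1.70): JCHAIN, which joins IgM and IgA chains, at -2.75, the plasma cell receptor TNFRSF17 at -2.28, and the coactivator POU2AF1 at -0.47. None of these shares was tested against other genes. BCL11A fell in the same libraries, from 162, 159 and 173 to 64.9, 66.3 and 64.8 CPM (-1.33, edgeR adjusted p = 1.65e-10). The mRNA of CREBBP, a target of A-485, rose by 0.40 (adjusted p = 5.63e-05) and that of EP300 did not pass (0.10).

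Markers of other cell types moved too. The summed raw CPM of 10 T and NK cell markers was 638 to 682 untreated and 549 to 588 with A-485, with CD2, CD8A, GNLY and KLRD1 at 0 in all Karpas-422 libraries, and that of 8 fibroblast and epithelial markers 383 to 431 and 186 to 203, with 6 of the 8 at 0. The 8 myeloid markers summed to 2.01 to 4.52 and 6.63 to 8.47, with 4 at 0. The 10 B cell markers summed to 4992 to 5247 untreated and 3381 to 3743 with A-485. Their part in the members' changes was not tested.

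In untreated WSU-DLCL2, replicate 3 stood apart from replicates 1 and 2. That chaperones are high in it was known when the list was drawn up, so the counts here describe that library and are no further evidence of it. Replicates 1 and 2 differed by a mean chi-square of 2.66 per gene, while replicate 3 differed from them by 200.9 and 211.7. Each value is 1 library against 2, with no test. Of 37 members, 12 were at least 2-fold above the mean of replicates 1 and 2 (log2 ratios with 0.5 CPM added), against 8.38% of 16152 genes, and 1 was at least 2-fold below, against 10.5%. Replicate 3 was higher for 29 members, with a median log2 ratio of 0.69 against 0.00 over all genes. The members took 0.478% of gene counts in each of replicates 1 and 2 and 0.957% in replicate 3. Replicate 3 also had the lowest depth of the 3, 21233752 counts against 34044641 and 37286727, and ACTB at 3432 raw CPM against 9852 and 9994. Their part in its member values was not tested.

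HSPA5 stood at 215, 231 and 1087 CPM in replicates 1, 2 and 3, a ratio of 4.86, and CALR at 257, 272 and 1049 CPM, a ratio of 3.96. HSP90B1 had 202, 215 and 696 CPM (3.33) and HYOU1 94.6, 94.7 and 261 CPM (2.75). DNAJB11 (2.70), SDF2L1 (2.66), PDIA6 (2.56), PDIA3 (2.501), CANX (2.35), CRELD2 (2.18), MANF (2.14) and DERL2 (2.07) complete the 12. By role, 7 of 9 luminal chaperones and both lectins were at least 2-fold higher, against 2 of 8 isomerases, 1 of 8 degradation factors and none of the 3 sensors tested, the 6 translocation genes or SEC24D. The degradation lectin EDEM1 went the other way, 584, 542 and 204 CPM (0.36), as did the sensor EIF2AK3 at 98.3, 94.7 and 50.9 CPM (0.53). ATF6 was at 55.7, 60.1 and 76.1 CPM and ERN1 at 6.80, 6.21 and 5.92 CPM, so of the sensors ATF6 was above both other libraries, and ERN1 and EIF2AK3 were below both. Of the 8 members with an ERSE or ERSE-II in the promoter window, 7 were at least 2-fold higher (median log2 ratio 1.44), against 4 of 25 without (0.63). HERPUD1 was the exception among the 8, at 221, 218 and 294 CPM. In Karpas-422 the same split gave 2 rises and 4 falls of 7 with an element (median log2 fold change -0.82) and 7 and 7 of 24 without (-0.05). For the clones the medians were -0.37 and -0.11 with all 3 untreated libraries and 0.36 and 0.08 without replicate 3, and between the lines 5 of 8 were higher and 1 lower (0.55) against 13 and 6 of 25 (0.28). None of these splits was tested. Of the 8 with an element, all but HERPUD1 are luminal or lectin chaperones, so element and role cannot be told apart. The list was drawn up knowing that chaperones are high in replicate 3, so the split in that library is no further evidence.

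Per kilobase of annotated exon, the members highest in replicates 1 and 2 were CANX at 113 CPM per kb, CALR at 97.4, EDEM1 at 83.3, SEC61B at 79.8 and HSPA5 at 57.1. The length is the annotated exonic length of the gene and not that of its expressed transcripts, so this order between genes is rough. The lowest were ERN1 at 0.60, TXNDC5 at 0.14 and CREB3L2 at 0.03 CPM per kb. In replicate 3 CALR reached 386 and HSPA5 278 CPM per kb. XBP1 was higher in replicate 3, at 16.3, 17.0 and 57.7 CPM, whereas 6 of 13 ATF4 arm targets were at least 2-fold lower and none higher (median log2 ratio -0.96). CHAC1, a glutathione-degrading enzyme of that arm, had 12.5, 12.4 and 1.06 CPM, DDIT3 (CHOP) 15.5, 16.2 and 10.1 CPM, and PPP1R15A 92.6, 92.8 and 33.3 CPM. XBP1 and CHAC1 were chosen here after their values were seen. Over all 16152 genes, 8.38% were at least 2-fold higher in replicate 3 and 10.5% at least 2-fold lower. Of the wider lists, other degradation genes (0 higher and 1 lower of 19), other folding enzymes (0 and 1 of 20), glycan trimming (0 and 0 of 10), translocation (2 and 0 of 19), the oligosaccharyltransferase (0 and 0 of 11) and the COPII coat (0 and 0 of 11) had few genes past 2-fold, the transcription factor list had 1 and 3 of 18, and the plasma cell list 3 and 1 of 6.

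**Figure D3:**
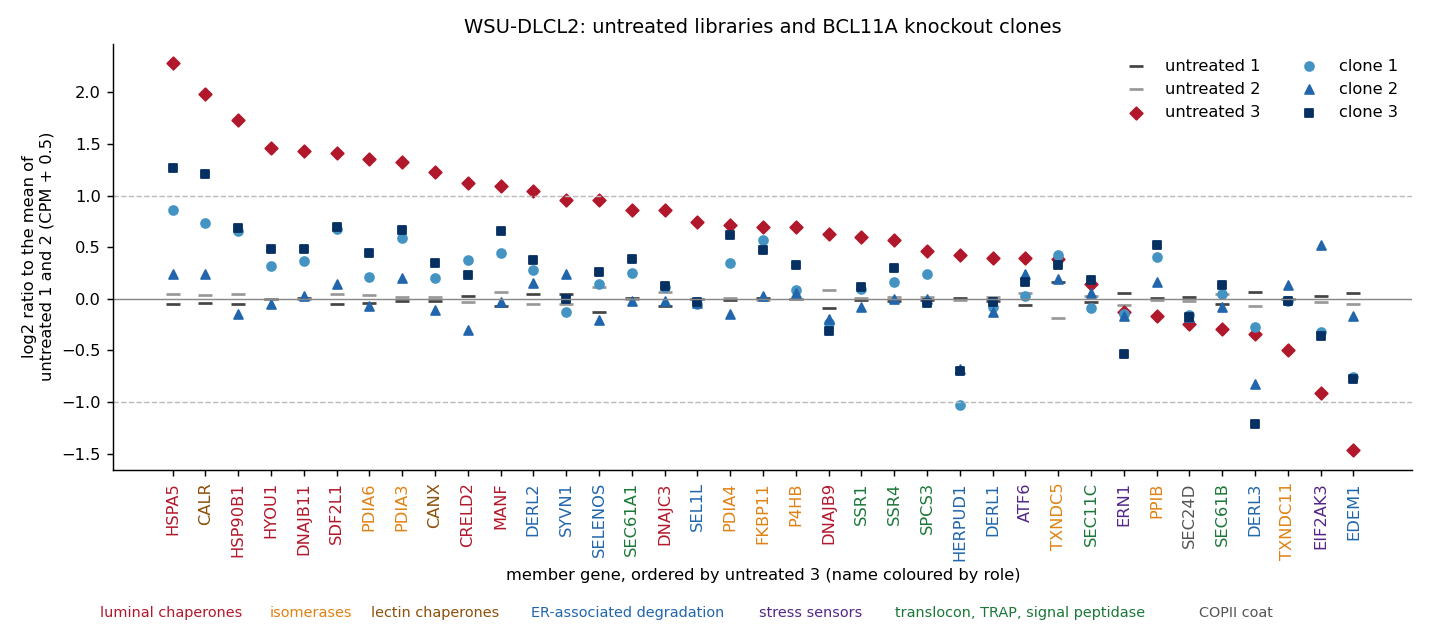
Log2 ratio of each member to the mean of untreated WSU-DLCL2 replicates 1 and 2 (0.5 CPM added), for untreated replicate 3 and the 3 clones. Replicate 3, known to be high in chaperones when the list was drawn up, exceeds all 3 clones for 28 of 37 members (40% of all genes). At HSPA5 every clone lies between replicates 1 and 2 and replicate 3.

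The clones labelled as BCL11A knockouts were compared with untreated WSU-DLCL2, and the sign of most of their chaperone differences depends on replicate 3. BCL11A counts were not lower in the clones: 58.9, 68.3 and 53.0 CPM against 46.9, 46.2 and 72.2 CPM (log2 fold change 0.13 ± 0.21, edgeR adjusted p = 0.915). Without replicate 3 every clone was above both untreated libraries, at 58.8, 68.02 and 52.9 against 46.7 and 46.03 CPM (0.37 ± 0.12, edgeR adjusted p = 0.177). Counts over a whole gene need not show a small edit, so this checks the labels in neither direction. With all 3 untreated libraries, no member rose or fell among 37 tested (edgeR, 2 at an unadjusted p under 0.05, and 0 up and 1 down by DESeq2). The same test called 0% of 16152 genes up and 0% down (1117 at an unadjusted p under 0.05, 297 by DESeq2). The clones were all above the untreated libraries for 1 member (7.96% of all genes) and all below for 5 (8.51%). The former was PPIB, at 50.8, 42.9 and 55.0 CPM in the clones against 38.6, 37.9 and 34.1 CPM (0.43 ± 0.14, edgeR adjusted p = 0.59). The latter were HERPUD1, DNAJB9 (9.69, 10.00 and 9.14 CPM against 10.7, 12.2 and 18.0 CPM), SEL1L (133, 134 and 134 against 137, 137 and 231), DERL1 (104, 101 and 108 against 109, 112 and 146) and ERN1 (5.81, 5.76 and 4.33 against 6.80, 6.21 and 5.92). For HERPUD1, DNAJB9, SEL1L and DERL1 replicate 3 was the untreated library farthest from the clones. The median log2 fold change was -0.18 against -0.01 over all genes.

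Without replicate 3 the same clones read the other way for most chaperones. Of 37 members 29 were then above the untreated mean and 8 below, and the median was 0.15 against 0.02 over all genes. In this fit 1 member fell and none rose (10 at an unadjusted p under 0.05, and 3 up and 1 down by DESeq2), where 0.422% of 16607 genes rose and 1.69% fell. Of the 16607 genes, 3150 had an unadjusted p under 0.05, and DESeq2 called 1061 genes. All clones were above both untreated libraries for 10 members (19.9% of all genes) and below for 8 (20.3%). Leaving out untreated replicate 1 or 2 as well left 0 members and 1 gene called, whereas leaving out clone 2 gave 13 members up, 3 down and 3020 genes. The role medians were 0.31 for luminal chaperones, 0.34 for isomerases and 0.47 for the lectins, and -0.06 for degradation factors, 0.01 for the sensors and 0.07 for translocation.

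HERPUD1 was the member called lower. It stood at 107, 136 and 134 CPM in clones 1 to 3 against 220.1 and 217 CPM in untreated replicates 1 and 2, with no overlap, a log2 fold change of -0.79 ± 0.11 (edgeR adjusted p = 0.0302). With replicate 3, at 294 CPM, it was -0.95 ± 0.17 and not called by edgeR (adjusted p = 0.212), though DESeq2 gave an adjusted p of 0.000847. The call without replicate 3 was also lost with clone 3 left out (edgeR adjusted p = 0.0798), with untreated replicate 1 (0.305) or 2 (0.330) left out, and with replicate number as a block (-0.85, adjusted p = 0.0627).

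HSPA5 stood at 404, 262 and 536 CPM in the clones against 214 and 229.7 CPM, a log2 fold change of 0.85 ± 0.30 (edgeR adjusted p = 0.224, DESeq2 adjusted p = 0.0242). Every clone was above both untreated libraries, clone 2 by the least, and without clone 2 the value was 1.08 (edgeR adjusted p = 0.0275). With replicate 3 it was -0.35 ± 0.67 (adjusted p = 0.926), so its sign turned on that library. CALR behaved alike, at 438, 312 and 609.9 CPM against 256 and 270.5 CPM (0.79 ± 0.28, edgeR adjusted p = 0.229, DESeq2 adjusted p = 0.0336), and -0.21 ± 0.59 with replicate 3. PDIA3 had 332, 254 and 352 CPM against 217 and 224 CPM (0.50 ± 0.14, edgeR adjusted p = 0.153, DESeq2 adjusted p = 0.0356). SDF2L1 had 14.1, 9.57 and 14.4 CPM against 8.32 and 8.94 CPM (0.56 ± 0.21, edgeR adjusted p = 0.229), PPIB 50.7, 42.7 and 54.9 against 38.4 and 37.7 CPM (0.38 ± 0.12, adjusted p = 0.177) and DERL2 38.1, 34.8 and 40.8 against 32.2 and 30.2 CPM (0.28 ± 0.10, adjusted p = 0.213). In each of these 6 genes every clone was above both untreated libraries, and none passed edgeR's threshold. HSP90B1 was not, at 328, 188 and 335 CPM against 201 and 214 CPM (adjusted p = 0.416), nor PDIA4, at 169 to 205 CPM in clones 1 and 3 and 119.9 CPM in clone 2 against 132 and 134 CPM.

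On the low side EDEM1 had 333, 500.1 and 328 CPM in the clones against 581 and 539.9 CPM (-0.53 ± 0.20, edgeR adjusted p = 0.234), and SEC24D 89.9 to 90.9 CPM against 100.02 and 103 CPM (-0.17 ± 0.06, adjusted p = 0.229). DERL3 was at -0.83 ± 0.33 (adjusted p = 0.254). The sensors ATF6 (58.8, 68.0 and 64.8 CPM against 55.4 and 59.8), ERN1 (5.79, 5.74 and 4.32 against 6.77 and 6.19) and EIF2AK3 (77.1, 139 and 74.7 against 97.8 and 94.3) did not pass, and clone 2 was the high one for ATF6 and EIF2AK3. CREB3L2 had 1 count over the 3 clones and 26 over the 3 untreated libraries, and was not tested in the main fits. With no filter on low counts, it was called lower by edgeR in the clones than in untreated replicates 1 and 2. Its counts there were 1, 0 and 0 against 13 and 6.

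**Figure D4:**
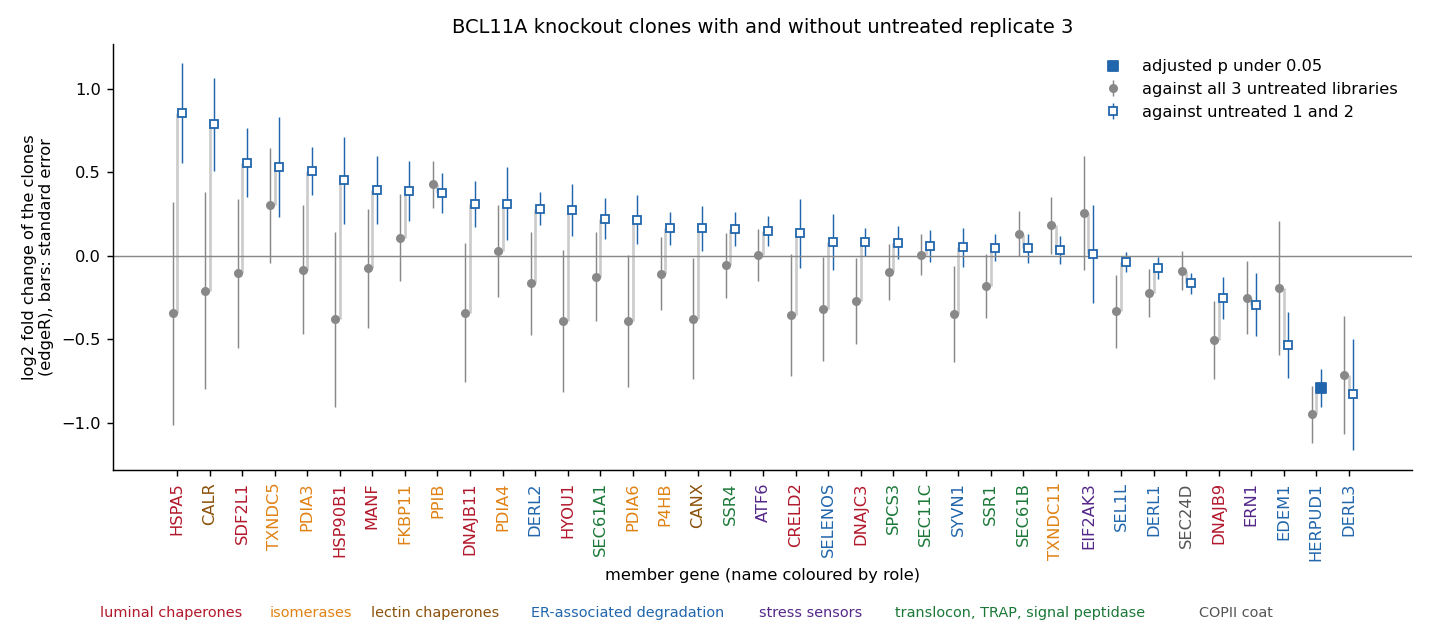
Log2 fold change with SE of the 37 tested members in the clones over untreated WSU-DLCL2, with all 3 untreated libraries and without replicate 3. HSPA5 goes from -0.35 to 0.85 when replicate 3 is left out and CALR from -0.21 to 0.79, while HERPUD1 is low in both (-0.95 and -0.79).

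The clones also differed among themselves. Clone 2 was the lowest of the 3 for 25 of 37 members and clone 3 the highest for 23, and the order clone 3, clone 1, clone 2 held for 21. The same order was not counted over all genes, so it is not known to be particular to the members. Against the mean of untreated replicates 1 and 2, the median log2 ratio was 0.16 in clone 1, -0.02 in clone 2 and 0.26 in clone 3. The members took 0.537%, 0.485% and 0.583% of gene counts in clones 1, 2 and 3. Replicate 3 exceeded all 3 clones for 28 of 37 members, against 40% of all genes. For 8 members (HSPA5, DNAJB11, SDF2L1, PDIA3, P4HB, FKBP11, CALR and DERL2), against 8.93% of all genes, every clone lay between replicates 1 and 2 and replicate 3. Chaperones were known to be high in replicate 3 when the list was drawn up, so these counts against it are no further evidence.

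In raw CPM the B cell markers summed to 6304 to 7450 in the clones and 6741 to 9534 in the untreated libraries, the T and NK cell markers to 4.14 to 17.9 and 2.68 to 11.5, the myeloid markers to at most 0.573, and the fibroblast and epithelial markers to 28.8 to 74.5 and 20.3 to 30.0. Their part in the members' values was not tested. In the wider lists edgeR called none of 127 tested genes with all 3 untreated libraries (12 at an unadjusted p under 0.05). DESeq2 called 6 of 134, 1 higher (QSOX1) and 5 lower, among them PPP1R15A, DDIT3, ERO1B and IRF4. Without replicate 3 and by edgeR, PPP1R15A fell from 92.1 and 92.4 to 16.5, 27.3 and 19.1 CPM (-2.13 ± 0.21, edgeR adjusted p = 0.0143), as 1 of 18 in the transcription factor list. Of 13 ATF4 arm targets 3 fell and none rose (median -0.65): PSAT1 (-0.85, edgeR adjusted p = 0.014), the mitochondrial folate enzyme MTHFD2 (-0.65, adjusted p = 0.0144) and asparagine synthetase ASNS (-0.66, adjusted p = 0.0337). QSOX1, a secreted sulfhydryl oxidase, rose (1.07, edgeR adjusted p = 0.0337) as 1 of 20 other folding enzymes. IRF4, a factor of plasma cell differentiation, fell from 6.27 and 6.02 to 0.539, 0.280 and 0.912 CPM (-3.41, edgeR adjusted p = 0.0201), as 1 of 6 in its list. Untreated replicate 3, left out of this fit, was low as well for IRF4 (1.11 CPM) and PPP1R15A (33.3 CPM). The ATF4 arm median was also low in it (-0.96), with ASNS at 268 CPM. For QSOX1, at 22.5 CPM, it was near replicates 1 and 2. The other 5 lists had no called gene, where 0.422% of 16607 genes rose and 1.69% fell. Each of these calls was lost when untreated replicate 1 or 2 was left out.

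With A-485, the lines could be compared with each other, WSU-DLCL2 over Karpas-422. The comparison holds the difference between the lines and any difference in their response to the drug, which cannot be told apart without an untreated WSU-DLCL2 library of this kind. Of 36 members tested, 18 were higher in WSU-DLCL2 and 7 lower (edgeR adjusted p under 0.05), against 34.3% and 38.1% of 12472 genes. Among the 18, HYOU1, TXNDC5 and EIF2AK3 passed the count filter through the WSU-DLCL2 libraries. Their being tested is therefore tied to their being higher there. The groups did not overlap, with WSU-DLCL2 above, for 17 members (35.1% of all genes) and, below, for 7 (39.8%). The median log2 difference was 0.29 against -0.07 over all genes. Unaligned reads made up 14.1% to 14.6% of the WSU-DLCL2 reads and 2.51% to 2.86% of those of Karpas-422, and the summed raw CPM of the B cell markers was 1809 to 2458 against 3381 to 3743, of the T and NK cell markers 0.141 to 0.448 against 549 to 588, and of the fibroblast and epithelial markers 14.5 to 17.5 against 186 to 203. Their part in the differences was not tested.

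SPCS3, a subunit of the signal peptidase, had the smallest p of the members: 1563, 1399 and 1533 CPM in WSU-DLCL2 against 443, 453 and 465 CPM in Karpas-422. That is 3.30-fold, a log2 difference of 1.72 ± 0.05 (edgeR adjusted p = 2.49e-15). HSPA5 was higher in WSU-DLCL2, at 3666, 3396 and 3630.1 against 2138, 2142 and 2148 CPM (0.73 ± 0.04, edgeR adjusted p = 6.88e-11). HSP90B1 was lower, at 35.3, 34.0 and 35.4 against 58.5, 66.2 and 61.8 CPM (-0.83 ± 0.08, edgeR adjusted p = 5.33e-08), and so was DNAJB11, at 85.2, 71.4 and 78.2 against 118, 115 and 123 CPM (-0.60 ± 0.07, adjusted p = 8.51e-07). This comparison shares its Karpas-422 libraries with that of A-485 against untreated cells, where they stand on the other side, so the signs of the same genes are not independent between them.

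Among the luminal chaperones 4 were higher, 3 lower and 2 of 9 did not pass. HYOU1 was 1.36 ± 0.30 higher on the log2 scale (edgeR adjusted p = 0.000542) at 0.992 to 4.14 CPM, and SDF2L1, at 28.96, 62.5 and 42.3 against 27.3 to 30.5 CPM, did not pass (0.61 ± 0.30, adjusted p = 0.129). Of 8 isomerases 5 were higher and none lower, among them PDIA4 at 693, 779 and 749.8 against 626, 588 and 587 CPM (0.30 ± 0.05, edgeR adjusted p = 4.73e-05), P4HB (0.67 ± 0.13, adjusted p = 0.000131) and TXNDC5 (1.62 ± 0.34, adjusted p = 0.000322, at 0.569 to 4.58 CPM). Of the lectins CANX was higher, and CALR, at 24.002, 42.8 and 28.7 against 30.9, 26.1 and 25.4 CPM, did not pass (0.22 ± 0.21, adjusted p = 0.378).

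Degradation factors split, with 3 higher and 3 lower of 7. EDEM1 was higher, at 1413, 1337 and 1377 against 1057, 1066 and 1030.5 CPM (0.39 ± 0.04, edgeR adjusted p = 3.88e-07), and so was HERPUD1, at 12.7, 10.01 and 12.3 against 8.43, 8.38 and 8.08 CPM (0.49 ± 0.15, adjusted p = 0.00749). Both parts of the core ligase were lower. SEL1L stood at 807, 743 and 773 against 1121, 1195 and 1189 CPM (-0.59 ± 0.05, edgeR adjusted p = 4.01e-09), and SYVN1 at 26.9, 22.7 and 22.7 against 42.6, 37.8 and 36.7 CPM (-0.69 ± 0.10, adjusted p = 7.46e-06). SELENOS was lower too (-0.73 ± 0.20, edgeR adjusted p = 0.00396).

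Of the sensors ATF6 was 2.31-fold lower in WSU-DLCL2, at 369, 340.4 and 345 against 805, 832 and 800.4 CPM (-1.21 ± 0.05, edgeR adjusted p = 2.21e-13). ERN1 overlapped, at 28.96, 36.5 and 33.0 against 38.3, 34.2 and 37.6 CPM (-0.16 ± 0.10, adjusted p = 0.154). EIF2AK3 was higher, at 3.10, 3.15 and 2.76 against 2.11, 1.21 and 1.36 CPM (0.95 ± 0.29, edgeR adjusted p = 0.00727, DESeq2 adjusted p = 0.0671). CREB3L2 had 0 counts in Karpas-422 and 0.774, 1.72 and 0.920 CPM in WSU-DLCL2. In raw CPM the WSU-DLCL2 value was 9.46-fold above a floor of 3 counts over the Karpas-422 group. That ratio leaves out the counting error of the 23 WSU-DLCL2 counts, so it is not a lower bound. In translocation 4 of 6 were higher and none lower, with SSR1 at 78.2, 72.8 and 77.9 against 49.6, 56.0 and 49.6 CPM (0.56 ± 0.08, edgeR adjusted p = 4.16e-06). Of the 25 members called, 15 kept their call and direction in every other setting. EIF2AK3 and SELENOS lost it under DESeq2 alone, and CANX, CRELD2, DERL2, DNAJB9, MANF, PDIA6, SEC11C and SEC61B lost it when at least 1 of the libraries was left out, with edgeR adjusted p up to 0.598 (DNAJB9, without WSU-DLCL2 replicate 2).

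**Figure D5:**
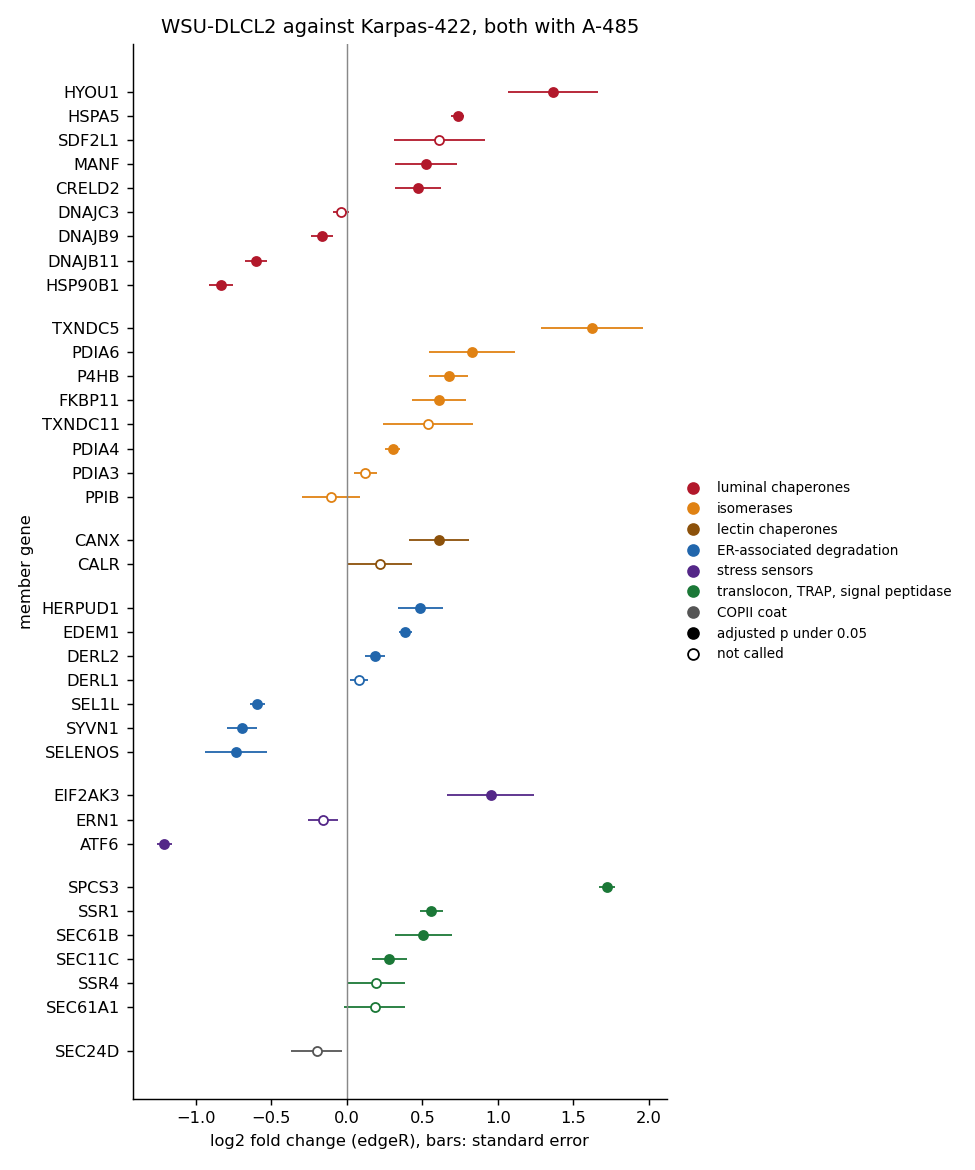
Log2 difference with SE of the 36 tested members between WSU-DLCL2 and Karpas-422, both with A-485, coloured by role and filled where called by edgeR. SPCS3 (1.72) and TXNDC5 (1.62) lie highest and ATF6 (-1.21) lowest. TXNDC5 passed the count filter through the WSU-DLCL2 libraries, where it is high.

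The wider lists are given as counts beside the 34.3% of all genes higher in WSU-DLCL2 and the 38.1% lower, with no test between lists. Further translocation genes were higher in WSU-DLCL2 for 12 and lower for 2 of 19, with SRP14 at 2.20, SRPRB at 1.13 and TRAM2 at -3.01. The plasma cell list gave 4 and 1 of 6, with JCHAIN at 9.05, and the COPII coat 5 and 1 of 11, with SEC24A at 0.45. The oligosaccharyltransferase gave 4 and 2 of 11, with its catalytic subunit STT3A at 1.70, and the ATF4 arm 5 and 4 of 12, with PSAT1 at 1.69, SLC7A11 at -1.48 and VLDLR at -3.56. Degradation genes gave 8 and 8 of 19, with UBE2J1 at 2.49, other folding enzymes 7 and 9 of 20, with the plasma cell cochaperone MZB1 at 5.59 and TMX3 at -1.02, glycan trimming 1 and 3 of 10, with MAN1A1 at 4.32, and the transcription factors 3 and 6 of 15. JCHAIN, MZB1 and MAN1A1 had 0.341 to 2.62 CPM in Karpas-422 and passed the count filter through the WSU-DLCL2 libraries.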

How the data were processed

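Read counts per gene were deposited by the authors, 1 file for each of 15 libraries, as raw whole-number counts of reads and not of molecules. The aligner STAR 2.5.3a, RSEM and the build GRCh37 (hg19) are named per the submitters' processing notes. For the counter, annotation and strand the sources used here give nothing, so reads of a gene and of its overlapping or antisense partner may be mixed. The 17 sample records were grouped by title, and the 3 runs of untreated WSU-DLCL2 replicate 3 share 1 file. Each file ends in 5 summary lines, 60.9% to 70.2% of reads in the shallower libraries and 27.3% to 29.7% in the deeper, which stayed out of library sizes and tests. Identifiers were given symbols through a gene name table and GENCODE 29 (52181 of 63677). Floors and counts cover counting error only.

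Tests were run in R 4.3.3 with edgeR 4.0.16 (TMM, filterByExpr, robust quasi-likelihood, two-sided, only the groups compared), Benjamini-Hochberg adjusted over all genes kept, threshold 0.05, and checked on simulated data. Standard errors are the fold change over the square root of F. Alternatives were RLE size factors, library totals alone, DESeq2 1.42.0, no filter, the replicate number as a block, and leaving out each library. Log2 ratios of single libraries had 0.5 CPM added. Replicate pairs were compared by chi-square over genes with at least 20 counts, and none was counted as 1 sample. Figures used matplotlib 3.10.9.

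The members and lists were chosen with earlier results of these data known. Named are all 38 members, up to 3 genes of each further list with the smallest p per comparison, and BCL11A, EP300 and CREBBP. Values per library are given for the 8 members with the smallest p per comparison and for 8 fixed ones. Some further members have them as well, and XBP1, ATF4, CHAC1, DDIT3 and the per-library values of TRIB3 and PPP1R15A were picked after their values were seen. The last residues of the proteins were not analysed here.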

Additional observations from a re-analysis of the deposited data

How the results depend on the processing

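In Karpas-422, library totals in place of TMM gave 16 members up, 8 down and a median of 0.24, and turned SEL1L to 0.40, DERL1 to 0.084, SPCS3 to 0.17 and SEC24B to 0.094, as that scaling moves all genes up. For the clones against all untreated libraries, DESeq2 called 1 member down and 297 genes and no filter called 20 genes; leaving out 1 library gave 0 to 1 members down, 0 to 351 genes and a median of -0.30 to 0.15, the highest without untreated replicate 3. Against untreated replicates 1 and 2, DESeq2 called 3 members up and 1061 genes, no filter 2 down and 835 genes, and leaving out 1 library 0 to 13 up, 0 to 3 down and 1 to 3020 genes, the most without clone 2, where EIF2AK3 turned to -0.34 (up to 0.16 in the others); a lone untreated library there is assumed to vary like the clones. Between the lines the members' median was 0.40 with DESeq2 and 0.27 to 0.39 when 1 library was left out. The cause was not tested where none is named. Replicates share only a number: same-numbered libraries' deviations correlated at 0.0152, 0.0638 and -0.043 in Karpas-422, 0.1031, 0.031 and 0.2264 for the clones and -0.1821, -0.1036 and -0.0035 between the lines. With a replicate block, calls were 10 up and 14 down in Karpas-422, 17 and 6 between the lines, and, for the clones against replicates 1 and 2, 0 down and 89 genes. Members under about 10 CPM in the shallower libraries rest on few counts.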
